A study of Rattus norvegicus with 123 samples.

Results

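A set of 82 liver transcripts was followed that phenobarbital raised at each of 3 treatment times, out of 22470 distinct transcript probe sets on the array. A probe set belonged to the set when its mean log2 level in phenobarbital-treated rats exceeded the mean of the matching vehicle controls by 0.5 or more at 14, 28 and 90 d alike. The transcripts were thus chosen by their phenobarbital values. The rule found 83 probe sets and sets aside 1 of them, which had the largest rise at each time. A difference of 1 on the log2 scale is a doubling. Phenobarbital values are therefore a description here, and tests are given only for the other compounds.

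Male Han Wistar rats received a daily gavage, liver was taken 1 d after dosing ended, and total RNA was hybridised to Affymetrix RaGene 2.0 ST arrays. Phenobarbital was given at 80 mg/kg for 14, 28 or 90 d, with 3, 5 and 3 arrays, and its carboxymethylcellulose controls had 5, 5 and 4. Wy-14643 at 60 mg/kg for 28 d (5 arrays) had 5 carboxymethylcellulose controls, and 1,4-dichlorobenzene at 600 mg/kg for 28 d (4 arrays) had 4 corn oil controls. Cyproterone acetate (100 mg/kg, 14 or 28 d) was given to groups whose names carry the letter M or F, each with 4 arrays and 4 corn oil controls. Groups of 3 arrays each received piperonyl butoxide (600 mg/kg, 14 or 28 d) or methapyrilene HCl (30 mg/kg, 14 or 28 d, and 100 mg/kg, 14 d). These 5 groups shared 3 carboxymethylcellulose controls at 14 d and 3 at 28 d. Pioglitazone at 16 and 63 mg/kg (3 and 5 arrays) and rosiglitazone at 10 mg/kg (3 arrays) were given for 28 d and shared 5 water controls. The labels call all animals male and give no meaning for M and F. Group names write the doses as ppm, while the dose labels give mg/kg. No group combined 2 compounds. Each treated group was compared with its own controls. By the letter in the control names, methapyrilene and piperonyl butoxide shared a study set, as did both thiazolidinediones, and dichlorobenzene and Wy-14643 shared a set but not a vehicle. Between sets, compound and set cannot be told apart.

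Phenobarbital is a barbiturate that activates the constitutive androstane receptor (CAR) in hepatocytes, a nuclear receptor that switches on genes for drug metabolism and transport. Rodent liver answers with larger cells and more smooth endoplasmic reticulum, and phenobarbital is a classic tumour promoter there without damaging DNA. 1,4-Dichlorobenzene is a solvent and moth repellent, piperonyl butoxide an insecticide synergist that inhibits cytochromes P450, and cyproterone acetate a steroid antiandrogen. Wy-14643 activates the peroxisome proliferator receptor PPAR alpha, methapyrilene is an antihistamine toxic to rat liver, and pioglitazone and rosiglitazone are thiazolidinedione activators of PPAR gamma. The study compared nongenotoxic liver carcinogens with the 2 thiazolidinediones, which it names as non-hepatocarcinogens.

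The files name the probe sets by Ensembl transcript identifiers and do not pair them with genes, and 0 of them could be matched to a gene here. The transcripts are therefore described by number, from 1 for the largest to 82 for the smallest of each one's lowest rise with phenobarbital, and 4 by identifier. The label liver could not be checked against marker genes for the same reason. In whole-tissue RNA, fewer cells of a type and less RNA per cell cannot be told apart. Of 123 arrays, 112 were marked as of good quality and used. Array medians lay between 5.43 and 5.64 on the log2 scale.

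With phenobarbital the median rise of the 82 transcripts was 0.80 at 14 d, 0.90 at 28 d and 1.24 at 90 d. The largest rises were 3.82, 4.10 and 5.95. At least a doubling was seen in 25, 31 and 58 transcripts in turn, and a rise of 2 or more on the log2 scale in 4, 10 and 15. The rise was largest at 90 d in 69 transcripts, at 28 d in 8 and at 14 d in 5. The same split was not counted over all probe sets, and the times were not compared by a test. Control levels moved with time as well. Transcript 2 had control means of 9.97, 9.03 and 7.31 and treated means of 13.05, 13.12 and 13.26. Control means of transcript 7 rose instead, from 6.23 to 6.85 and 8.13. How much of the larger differences at 90 d lies in the controls was not tested. All treated arrays lay above all controls in 65, 53 and 78 of the 82, where 4.44%, 1.38% and 6.8% of all probe sets did so. A rise of 0.5 or more was seen in 1.83%, 1.21% and 2.11% of all probe sets. The last transcripts inside the rule had a lowest rise of 0.50025 and 0.50137, and the first ones outside 0.49343 and 0.49217.

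Arrays marked as not of good quality had no part in choosing the transcripts. At 90 d, 2 such phenobarbital arrays could be set against 1 such control array. Of the 82 transcripts, 81 had a mean above that control, and 77 exceeded it by 0.5 or more, with a median difference of 1.24. Over all probe sets, 46.8% were above it and 6% exceeded it by 0.5. Transcript 63 was the one not above the control, at -0.09. The 2 left-out phenobarbital arrays of 14 d stood 0.69 and 0.61 above the used controls in the median, and 57 and 55 transcripts reached 0.5, as 10.2% and 12.9% of all probe sets did. The used controls of 14 d took part in choosing the transcripts, so these 14 d values are not independent of the rule. The left-out control array of 14 d is replicate 3_2, by its name a repeat of the used replicate 3. These arrays correlated at 0.997, so the left-out control of 14 d is not independent of the rule either. The comparisons of left-out arrays have no replicated control of their own and carry no test.

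Every carcinogen in the series moved some of these transcripts, and the thiazolidinediones moved few. The thiazolidinediones, 1 study set with water controls, also moved few of all probe sets, at most 0.935% raised and 1.48% lowered. The median difference of the 82 transcripts from the control mean was computed on every array. It lay between 0.89 and 1.07 on the 4 dichlorobenzene arrays, and between 0.61 and 0.98 on the 3 piperonyl butoxide arrays of 28 d. Cyproterone acetate arrays of 28 d ranged from 0.57 to 0.85 in the M group and from 0.33 to 0.82 in the F group. Wy-14643 arrays lay lower, from 0.26 to 0.36. Control arrays of all sets stayed between -0.13 and 0.15, so treated and control arrays did not overlap for these compounds. Pioglitazone and rosiglitazone arrays lay between -0.15 and 0.09 and their water controls between -0.03 and 0.02. The groups overlapped for both pioglitazone doses, and 2 of the 3 rosiglitazone arrays were below the controls.

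**Figure D1:**
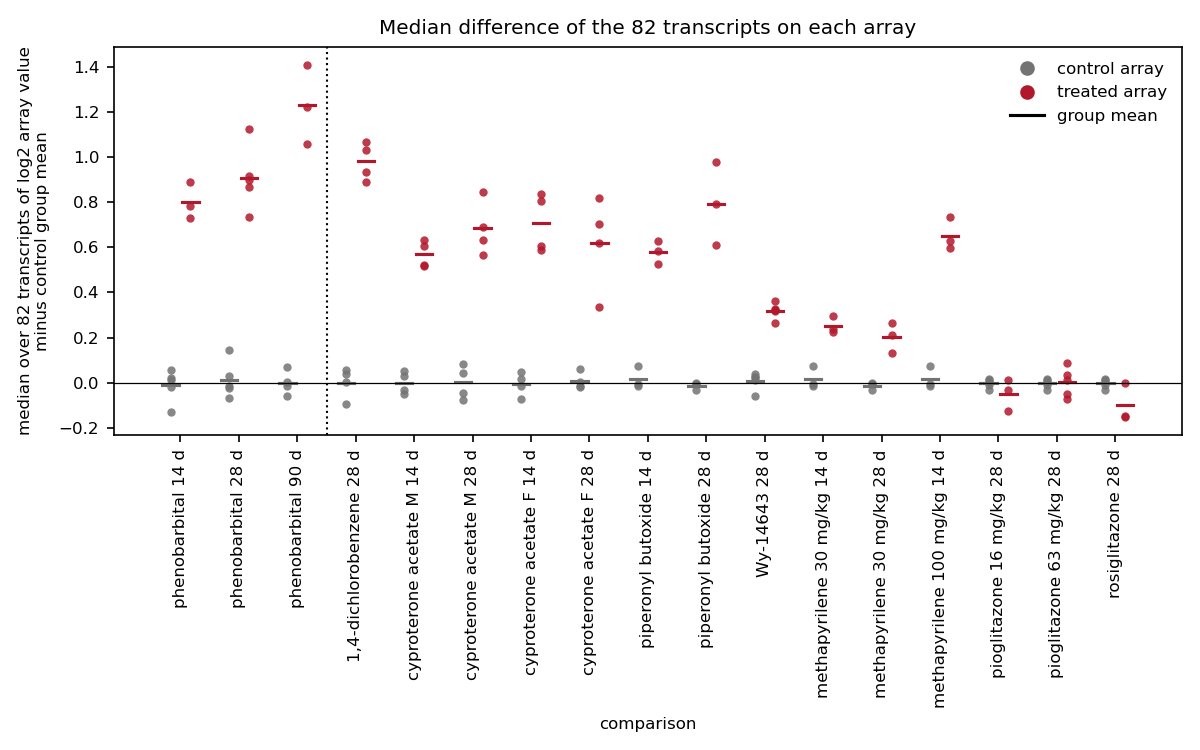
Median over the 82 transcripts of the log2 array value minus the mean of the matching control group, with 1 point per array, grey for controls and red for treated arrays, and a bar for each group mean. Phenobarbital groups, left of the dotted line, chose the transcripts. Dichlorobenzene arrays lie between 0.89 and 1.07, Wy-14643 arrays between 0.26 and 0.36, and thiazolidinedione arrays lie near 0, between -0.15 and 0.09.

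Single transcripts were tested with limma over all 22470 probe sets, and a transcript was called raised or lowered at a Benjamini-Hochberg adjusted p under 0.05. 1,4-Dichlorobenzene raised 59 of the 82 (72% against 3.89% of all probe sets) and lowered 0, where 2.07% of all probe sets were lowered. Their rises ran from 0.47 to 4.28. Without adjustment 68 of the 82 had a p under 0.05. The median over the 82 was 0.95, and -0.03 over all probe sets. Each single difference carried a median 95% half-width of 0.43 before adjustment, which limits what could be detected.

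Cyproterone acetate raised 47 of the 82 in the M group at 14 d (5.22% of all probe sets) and 51 at 28 d (6.16%). In the F group it raised 50 at 14 d (7.53%) and 48 at 28 d (8.91%). The M group had 0 lowered transcripts at 14 d (4.72% of all) and 2 at 28 d (5.14%), which were transcripts 30 and 45. In the F group transcripts 30, 39 and 58 fell at 14 d (6.21% of all were lowered), and at 28 d transcripts 25 and 27 fell as well, which made 5 (6.24%). Median changes were 0.54 and 0.65 in the M group and 0.70 and 0.67 in the F group. Between 14 and 28 d, 0 transcripts passed the limma test of the difference in either group, with 4 at an unadjusted p under 0.05 in each and a median half-width of 0.61. Of all probe sets, 0.00445% were called in each direction in either group.

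Piperonyl butoxide raised 26 of the 82 at 14 d (1.23% of all probe sets) and 44 at 28 d (4.93%). It lowered 0 at either time, where 0.676% and 5.71% of all probe sets were lowered. The median change was 0.60 at 14 d and 0.76 at 28 d. For the difference between the times, 0 transcripts passed limma (0.0267% of all probe sets higher at 28 d and 0.0134% lower), 12 had an unadjusted p under 0.05, and the median half-width was 0.70. Against dichlorobenzene at the same dose and time, 4 transcripts (20, 24, 28 and 32) had a larger rise with dichlorobenzene (0.734% of all probe sets) and 0 a smaller one (0.312%). Those differences ran from 1.14 to 1.86. That count moved between 1 and 8 raised when single arrays were left out, with 1 without piperonyl butoxide replicate 1 and 8 without its replicate 3. It was 2 without control replicate 1 or 3 of the 28 d carboxymethylcellulose group, and 5 raised and 2 lowered without piperonyl butoxide replicate 2.

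Wy-14643 raised 36 of the 82 (11.9% of all probe sets) and lowered 13 (12.5%). The lowered share was 15.9% of the transcripts, near that of all probe sets. Its median change was 0.33. The lowered transcripts were 4, 7, 21, 31, 32, 33, 34, 36, 37, 51, 61, 64 and 77, with falls from 0.64 to 3.21 on the log2 scale. Dichlorobenzene rises exceeded those of Wy-14643 in 33 transcripts (5.32% of all) and were below them in 8 (4.09%). These 2 compounds were given at different doses, 600 and 60 mg/kg, and in different vehicles.

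Methapyrilene at 100 mg/kg for 14 d raised 42 of the 82 and lowered 22. The same group had 24.8% of all probe sets raised and 23.3% lowered, so the lowered share of 26.8% was near that of the whole array. At 30 mg/kg it raised 15 (2.31%) and lowered 0 (1.07%) at 14 d, and raised 19 (5.37%) and lowered 8 (4.06%) at 28 d. The 15 became 7 when only arrays of the same study set were in the fit. Treated arrays of 100 mg/kg were higher than those of 30 mg/kg at 14 d in 30 transcripts (20.8% of all) and lower in 19 (15.5%). For 30 mg/kg between 14 and 28 d, 0 transcripts passed limma and 8 had an unadjusted p under 0.05. Over all probe sets 0% passed in either direction. All 19 transcripts raised by 30 mg/kg at 28 d were among the 42 raised by 100 mg/kg at 14 d, which is 100% of the first list and 45.2% of the second. Those 2 comparisons have different controls. The overlap of the 2 lists over all probe sets was not counted, so it is not shown to be particular to these transcripts.

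The thiazolidinediones left most of the transcripts uncalled. Pioglitazone at 16 mg/kg had 0 raised and 0 lowered in limma (0.0223% and 0.0267% of all probe sets), and 3 of the 82 at an unadjusted p under 0.05. At 63 mg/kg transcripts 5, 6 and 59 were raised (0.935%) and transcript 21 was lowered (1.48%). Rosiglitazone had 0 raised (0.2%) and transcripts 43 and 73 lowered (0.481%). Median changes were -0.06, -0.01 and -0.10, with median half-widths of 0.44, 0.38 and 0.44. Between the pioglitazone doses 0 transcripts passed limma (0.0134% of all probe sets higher at 63 mg/kg), with 5 at an unadjusted p under 0.05. Pioglitazone at 63 and rosiglitazone at 10 mg/kg were given at different doses. Set directly against each other, 0 transcripts passed limma (0.00445% of all probe sets lower with pioglitazone). The unadjusted p was under 0.05 for 8 of the 82, and the half-width had a median of 0.44. These few calls rested on single arrays, and 0 remained for either compound when only arrays of the same study set were in the fit: for pioglitazone at 63 mg/kg 0 remained without water control replicate 2 or pioglitazone replicate 2 or 4, and for rosiglitazone 0 without its replicate 4.

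**Figure D2:**
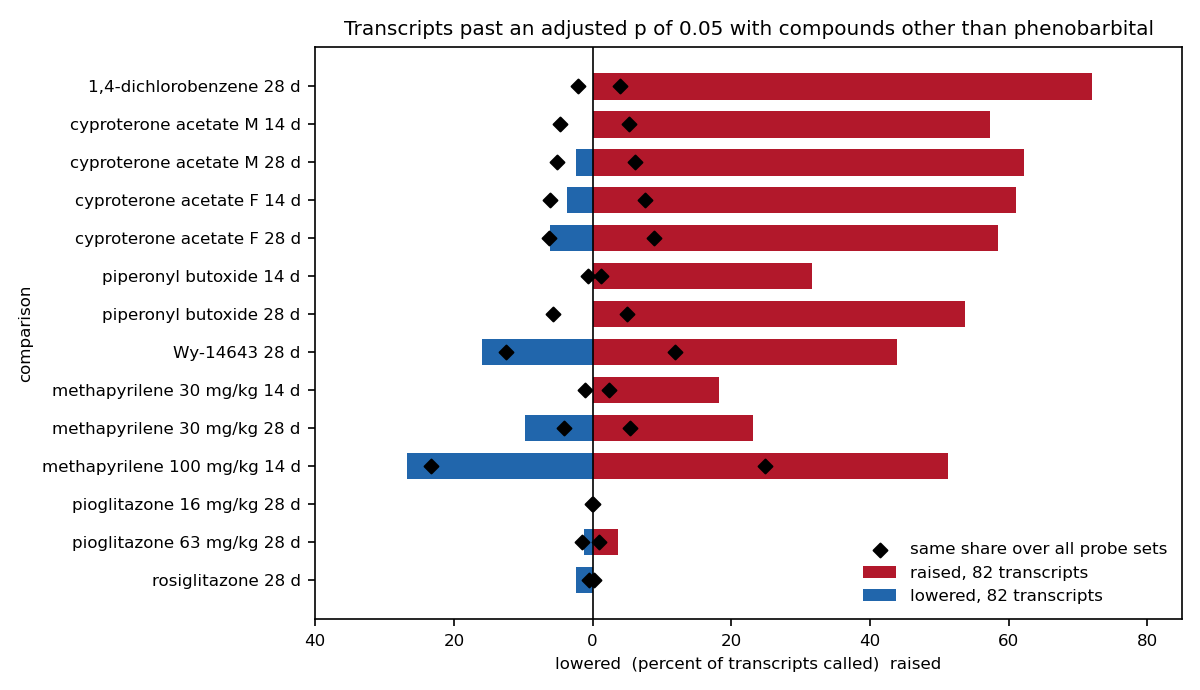
Percent of the 82 transcripts called raised (red bars, right) or lowered (blue bars, left) by each compound, with black diamonds for the same percent over all 22470 probe sets. Dichlorobenzene raised 72% against 3.89% of all, while methapyrilene at 100 mg/kg raised 51.2% against 24.8%.

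Over the 14 comparisons, 76 of the 82 transcripts were raised at least once (92.7% against 39% of all probe sets). At least 1 fall was called in 35 (42.7% against 38.8%), and 32 were called in both directions by different compounds (39% against 12.2%). Transcripts 9, 42 and 60 were called in none (3.66% against 34.4%). Some of these comparisons share controls. Dichlorobenzene, cyproterone acetate M and F and piperonyl butoxide at 28 d have separate controls, and 28 transcripts were raised by all 4 (0.601% of all probe sets). Wy-14643, with controls of its own, raised 19 of those 28 and lowered 2. Of all 135 probe sets raised by the 4, it raised 68.9% and lowered 7.41%, so the transcripts' counts were near this background. A further 13 transcripts were raised by none of the 4, where 83.7% of all probe sets were not. Wy-14643 raised 5 of these 13, namely 3, 15, 16, 25 and 39, and lowered 2, against 7.55% and 12.8% of all 18810 probe sets raised by none. Dichlorobenzene and piperonyl butoxide at 28 d had 40 raised transcripts in common, 67.8% of the 59 and 90.9% of the 44. Wy-14643 and dichlorobenzene had 30 in common, 83.3% of the 36 and 50.8% of the 59. For these 2 pairs the overlap over all probe sets was not counted, so neither is shown to be particular to the 82.

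**Figure D3:**
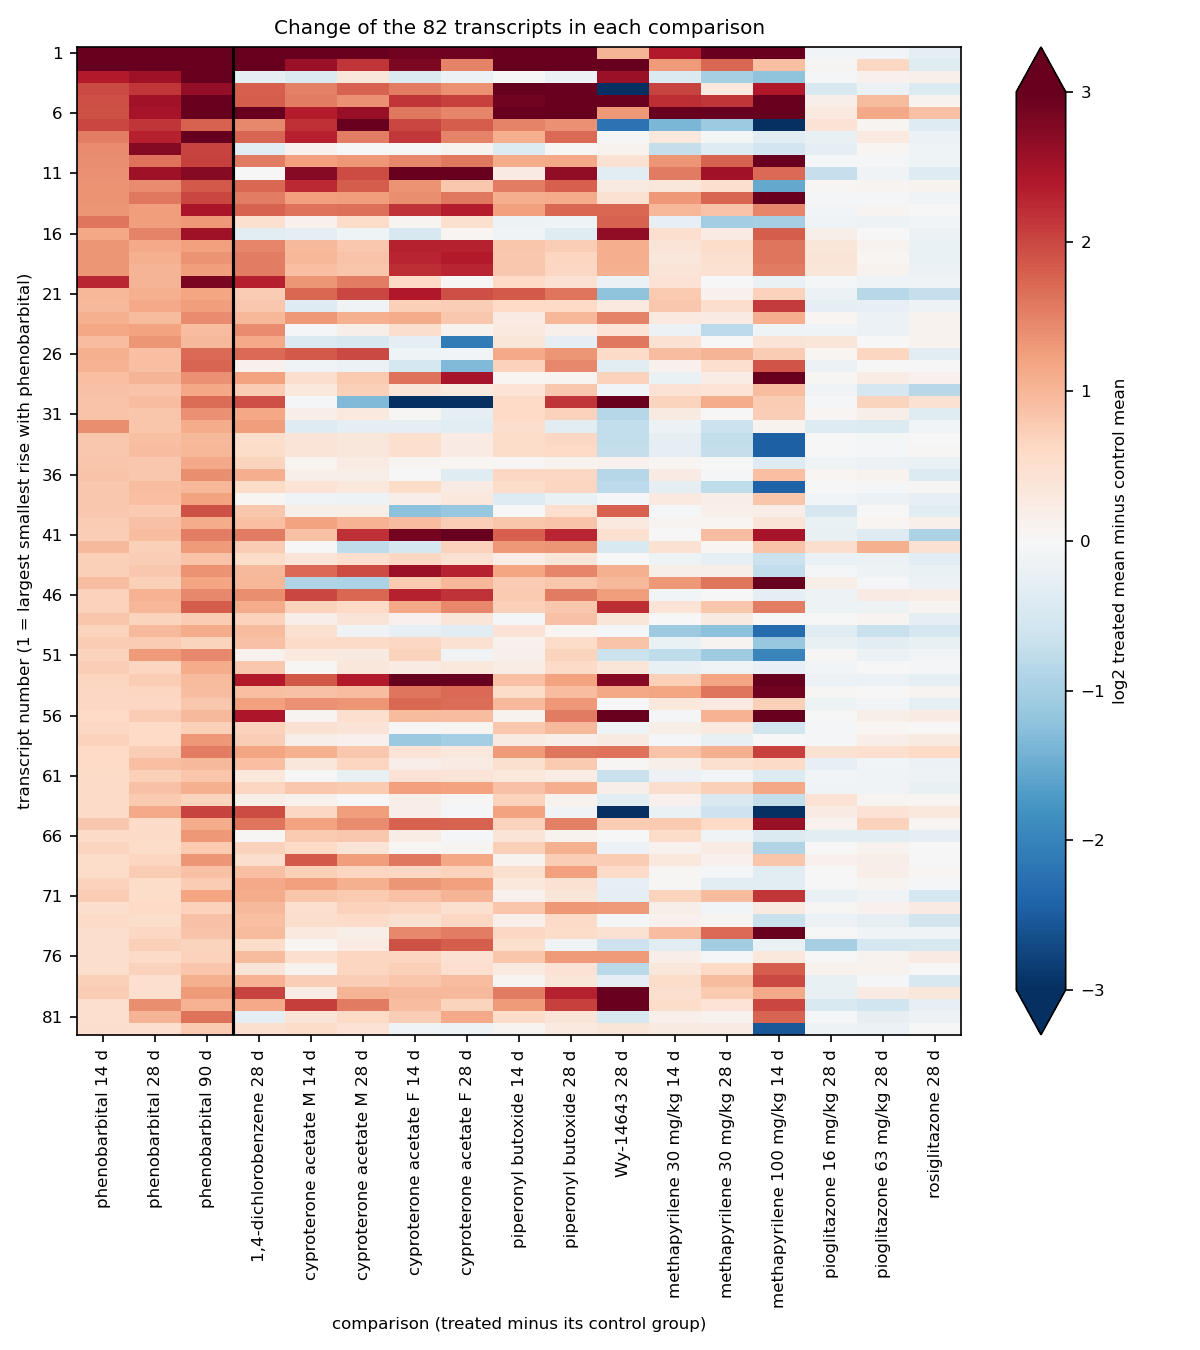
Change of each of the 82 transcripts (rows, by number) in each comparison (columns), as log2 treated mean minus control mean, red for higher and blue for lower, with colours ending at 3 either way. The 3 phenobarbital columns left of the line chose the rows and are red throughout. Of the other columns, those of dichlorobenzene and cyproterone acetate are mostly red, those of Wy-14643 and methapyrilene hold red and blue rows, and those of the thiazolidinediones are pale.

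ENSRNOT00000003977, transcript 1, was the one with the largest lowest rise, 3.56. Its log2 levels on phenobarbital arrays were 9.38, 9.45 and 9.70 at 14 d, 8.96, 9.09, 9.16, 9.38 and 9.78 at 28 d, and 9.60, 9.71 and 9.90 at 90 d. Control arrays outside the F group lay between 5.17 and 6.07. Dichlorobenzene arrays were at 9.71, 9.89, 9.91 and 10.10 against controls at 5.31, 5.37, 5.81 and 5.98, far apart. The difference was 4.28 (SE 0.22, limma adjusted p = 3.43e-29). Wy-14643 arrays were at 5.69, 6.47, 6.57, 6.80 and 7.35 against controls at 5.23, 5.36, 5.58, 5.67 and 5.89, so that 1 treated array lay among the controls. Its rise with Wy-14643 was 1.03 (SE 0.20, limma adjusted p = 1.46e-05), and the dichlorobenzene rise exceeded it by 3.25 (SE 0.29, limma adjusted p = 1.66e-15). This transcript rose in 11 of the 14 comparisons, all but those of the thiazolidinediones, where changes were -0.08, -0.08 and -0.28. With methapyrilene at 14 d it stood at 8.04, 8.14 and 8.17 for 30 mg/kg and at 9.61, 9.77 and 9.96 for 100 mg/kg, with no overlap.

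ENSRNOT00000028196, transcript 2, was spread unevenly, with group SDs from 0.11 to 1.40 among control groups and from 0.054 to 1.28 among treated ones. At 28 d, water controls were at 5.86, 6.86, 7.73, 8.64 and 9.04, and the corn oil controls of cyproterone acetate M at 8.85, 10.04, 10.06 and 10.32. Piperonyl butoxide arrays of 28 d were at 12.37, 12.64 and 13.24 against controls at 7.27, 7.37 and 7.48, and the rise was 5.38 (SE 0.62, limma adjusted p = 2.28e-10). On Wy-14643 arrays the level was 11.60, 11.66, 11.68, 11.81 and 11.85, above all of its controls, with a rise of 3.72 (SE 0.48, limma adjusted p = 5.66e-10). It rose in 8 comparisons. In the cyproterone acetate F group at 28 d the rise of 1.49 overlapped the controls (limma adjusted p = 0.0463), and 1 treated array stood at 9.89. That call was lost, at limma adjusted p from 0.0535 to 0.145, without control replicate 2, 3 or 4 or treated replicate 1, 2 or 4. It was also lost with the replicate block (0.0526), with arrays centred on their medians (0.0517) and with trend and robust variances (0.0521).

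ENSRNOT00000008319, transcript 30, rose with some compounds and fell with another. Levels in the F controls of 28 d were 11.68, 11.69, 11.83 and 11.88, and cyproterone acetate F arrays stood at 7.67, 8.41, 8.73 and 9.04. No treated array came near the controls, and the fall was -3.31 (SE 0.28, limma adjusted p = 1.05e-16). In the M group of 28 d the controls were at 8.41, 8.44, 9.07 and 9.18 and the treated arrays at 7.22, 7.32, 7.50 and 7.78, lower by -1.32 (SE 0.28, limma adjusted p = 0.00046). The F change at 28 d was below the M change by -1.99 (SE 0.40, limma adjusted p = 0.000543). At 14 d the fall in F was -3.17 (SE 0.28, limma adjusted p = 9.62e-16). In M the 14 d change was -0.03 (SE 0.28, limma adjusted p = 0.972), with overlapping groups. The M changes of the 2 times did not differ in limma (adjusted p = 0.642). Wy-14643 arrays were at 10.35, 10.99, 11.13, 11.30 and 11.34 against controls from 7.20 to 8.44. All lay above them, with a rise of 3.14 (SE 0.25, limma adjusted p = 1.17e-18). Dichlorobenzene and piperonyl butoxide at 28 d raised it by 1.94 and 2.16.

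ENSRNOT00000015724, transcript 64, carried the largest fall among the 82 transcripts in any comparison with controls. With methapyrilene at 100 mg/kg its arrays were at 5.67, 6.66 and 7.35 against controls at 9.38, 10.08 and 10.26. All treated arrays lay below all controls, by -3.35 (SE 0.75, limma adjusted p = 0.000102). Wy-14643 arrays were at 5.24, 6.24, 6.35, 6.63 and 7.67 against 9.13, 9.61, 9.74, 9.81 and 9.87, lower by -3.21 (SE 0.58, limma adjusted p = 4.69e-06). No rise passed the test. Dichlorobenzene arrays stood at 10.83, 11.02, 11.06 and 11.19 against 8.60, 9.00, 9.17 and 9.50, with no overlap and a difference of 1.96 (SE 0.65, limma adjusted p = 0.0533). That difference was called with all arrays (limma adjusted p = 0.0498), with arrays centred on their medians (0.0493) and without dim probe sets (0.0329). It was also called with the replicate block (0.0491) and with only arrays of the same study set in the fit (0.00203). It stayed uncalled in the other 10 of 15 alternatives, among them each one that left out a single array. Single low arrays also stood far below the rest of their groups: 5.64 with methapyrilene 30 mg/kg at 28 d, 5.67 with piperonyl butoxide at 28 d, 7.25 with cyproterone acetate M at 14 d and 5.83 among the water controls. What sets these arrays apart was not tested.

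**Figure D4:**
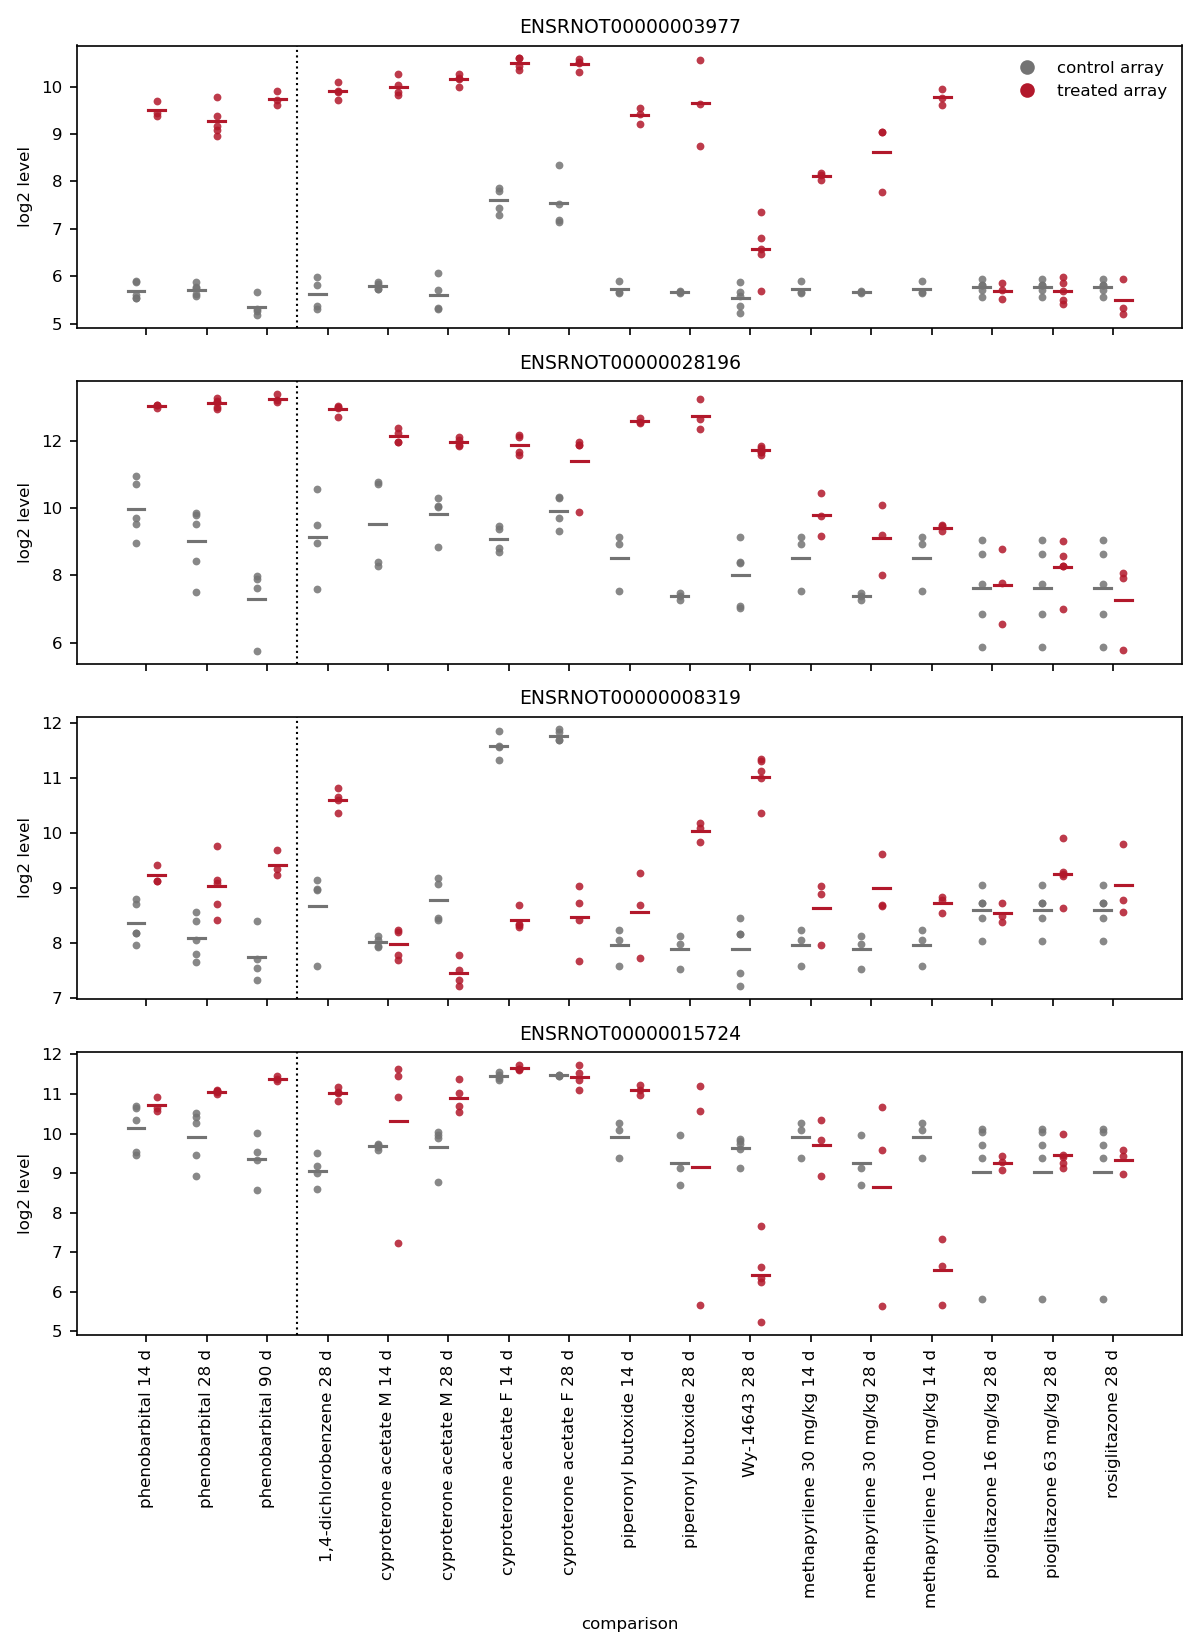
Log2 level of the 4 transcripts given by identifier on each array, in treated groups (red) and their controls (grey), with a bar for each group mean and phenobarbital left of the dotted line. ENSRNOT00000008319 falls with cyproterone acetate from its level in the F controls (11.68 to 11.88 at 28 d), and ENSRNOT00000015724 is below its controls with Wy-14643 and methapyrilene at 100 mg/kg.

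The transcripts that follow are given by number and were chosen after their values were seen. Transcript 3 was among the strongest with phenobarbital, with a lowest rise of 2.38, and Wy-14643 was the one other compound that raised it. Its Wy-14643 arrays were at 7.22, 7.26, 7.35, 7.41 and 7.95 and the controls at 4.44, 4.59, 4.81, 5.02 and 5.38, with no overlap. The rise was 2.59 (SE 0.25, limma adjusted p = 5.72e-15). With dichlorobenzene its arrays lay at 4.37, 4.49, 5.02 and 5.11 among controls at 4.54, 4.74, 5.39 and 5.51. The change with dichlorobenzene, -0.30, was below that with Wy-14643 by -2.89 (SE 0.37, limma adjusted p = 2.73e-09). Methapyrilene at 100 mg/kg lowered it by -1.21 (SE 0.32, limma adjusted p = 0.00113).

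Transcript 4 had the opposite pattern. Wy-14643 arrays were at 4.95, 5.11, 5.20, 6.43 and 6.51 against controls at 7.35, 8.83, 8.99, 9.02 and 9.21, all lower. The fall was -3.04 (SE 0.30, limma adjusted p = 9.7e-15), while 9 other comparisons raised it. Among these, piperonyl butoxide arrays of 14 d were at 11.11, 11.54 and 11.77 against 7.03, 8.07 and 8.34. Dichlorobenzene raised it by 1.80 (SE 0.33, limma adjusted p = 6.49e-05), a difference from Wy-14643 of 4.85 (SE 0.45, limma adjusted p = 3.28e-15).

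Transcript 7 was raised by cyproterone acetate in all 4 groups and lowered by 2 compounds. Methapyrilene arrays of 100 mg/kg were at 3.27, 3.37 and 3.69 against controls at 6.36, 6.45 and 6.92, lower by -3.13 (SE 0.47, limma adjusted p = 1.96e-08). Wy-14643 arrays lay between 3.87 and 4.87, below all controls, lower by -2.21 (SE 0.36, limma adjusted p = 5.49e-07). In the cyproterone acetate M group of 28 d the arrays stood at 6.92, 7.61, 8.25 and 9.06 against 3.71, 4.62, 5.09 and 5.43, higher by 3.25 (SE 0.41, limma adjusted p = 1.83e-09). Its control means also differed between groups, from 3.54 in the F controls of 14 d to 8.13 in the phenobarbital controls of 90 d. Those groups differ in study set, vehicle, letter and time.

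Transcript 33 varied little between arrays of a group, with phenobarbital arrays between 9.95 and 10.20 at all times. Methapyrilene at 100 mg/kg brought it to 6.45, 6.61 and 7.18 from 9.15, 9.20 and 9.25, a fall of -2.45 (SE 0.13, limma adjusted p = 1.57e-30). At 30 mg/kg for 14 d its arrays were at 8.75, 8.97 and 8.97, and the doses differed by -2.15 (SE 0.13, limma adjusted p = 1.14e-26). Wy-14643 lowered it by -0.74 (SE 0.10, limma adjusted p = 2.85e-09), and dichlorobenzene raised it by 0.53 (SE 0.11, limma adjusted p = 0.000669). Transcripts 34 and 37 followed it array by array, and whether they share probes or a gene was not tested.

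Transcripts 5 and 6 were raised in 12 of the 14 comparisons, more than any other of the 82. Transcript 5 stood at 10.61, 10.62 and 10.65 with methapyrilene 100 mg/kg against 6.56, 8.01 and 8.02, higher by 3.10 (SE 0.31, limma adjusted p = 1.05e-14). Their calls with pioglitazone at 63 mg/kg were weak. Transcript 5 was at 7.85, 8.24, 8.82, 9.08 and 9.29 there against 6.62, 7.31, 7.83, 8.03 and 8.73, groups that overlap, and the rise was 0.95 (SE 0.24, limma adjusted p = 0.0168). That call was lost without water control replicate 2 or 4 or pioglitazone replicate 2, 3 or 4, at adjusted p from 0.0514 to 0.124. For transcript 6 it was lost without water control replicate 1, 2, 3 or 4 or pioglitazone replicate 2, 3 or 4, at adjusted p from 0.0583 to 0.14.

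Transcript 9 belonged to the set through some of the arrays only. Phenobarbital arrays were at 3.52, 4.37 and 7.63 at 14 d, at 3.43, 4.44, 7.06, 7.50 and 8.84 at 28 d, and at 3.85, 4.44 and 9.62 at 90 d. Controls of the same set lay between 3.26 and 4.52, so the groups overlapped at each time while 5 treated arrays stood far above. Left-out phenobarbital arrays, which did not choose it, were at 4.26 and 6.41 at 14 d and at 9.21 and 9.73 at 90 d. The left-out control arrays of those times were at 3.77 and 3.28, the first of them a repeat of a used array. No other compound raised or lowered it.

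The transcripts also differed between the F and M controls of cyproterone acetate. At 14 d, 16 of the 82 were higher in F (3.87% of all probe sets) and 8 lower (4.05%). At 28 d, 14 were higher (4.09%) and 9 lower (3.6%). Transcript 30 stood out, with F controls of 14 d at 11.33, 11.56, 11.57 and 11.85 and M controls at 7.92, 7.95, 8.04 and 8.11, a difference of 3.57 (SE 0.28, limma adjusted p = 2.15e-18). Transcript 26 was at 10.90, 11.23, 11.43 and 11.54 against 8.50, 8.59, 8.93 and 9.06, higher in F by 2.51 (SE 0.28, limma adjusted p = 2.03e-11). Transcript 1 was higher in F by 1.81 (SE 0.22, limma adjusted p = 3e-10), and transcript 45 lower by -1.81 (SE 0.32, limma adjusted p = 1.09e-05).

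Cyproterone acetate changes differed between F and M in 15 transcripts at 14 d, 6 higher in F (1.93% of all probe sets) and 9 lower (1.45%). At 28 d they differed in 17, of which 8 were higher (2.06%) and 9 lower (1.41%). That near-even split at 28 d turned to 9 higher and 6 lower without M control replicate 4, and to 4 and 7 without F control replicate 3. Transcript 26 went from 8.79, 8.96, 9.05 and 9.18 to 10.50, 10.89, 11.20 and 11.29 in the M group of 28 d. In the F group it was at 11.18, 11.28, 11.33 and 11.44 against controls at 11.30, 11.30, 11.42 and 11.50. The F change was smaller by -2.05 (SE 0.40, limma adjusted p = 0.000302). For transcript 1 the F change was smaller by -1.63 (SE 0.31, limma adjusted p = 0.000196), with treated arrays from 10.32 to 10.58 in F and from 10.00 to 10.28 in M. Transcript 45 had F arrays of 28 d at 7.00, 7.24, 7.62 and 7.66 against 5.71, 6.54, 6.62 and 6.71, and M arrays at 5.66, 7.19, 7.53 and 7.69 against 7.43, 8.03, 8.13 and 8.25. Its change was larger in F by 1.93 (SE 0.45, limma adjusted p = 0.00353). The separate calls of transcript 45, up by 0.99 in F and down at -0.94 in M, were each lost without single arrays. For F these were control replicate 4 and treated replicates 3 and 4 (adjusted p from 0.0711 to 0.143), and for M control replicates 1, 3 and 4 and treated replicate 2 (0.0762 to 0.392).

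Controls of 14 d and treated and control arrays of 28 d are different arrays, so one could be set against the other. Of the 16 transcripts higher in F controls at 14 d, cyproterone acetate at 28 d raised 3 and lowered 5 in F, with a median change of -0.01. Of all 870 probe sets higher in those controls, 4.02% were raised and 40.2% lowered in F, with a median of -0.25. In M it raised 11 of the 16 and lowered 1, with a median of 0.62, against 18.3% and 7.7% of the 870 and a median of 0.09. Of the 8 that were lower in F controls, it raised 8 in F and 5 in M, and lowered 0 and 1, with medians of 0.50 and 0.43. All 909 such probe sets had 33.9% raised and 5.5% lowered in F, and 7.81% and 17.6% in M. Taken the other way, of the 14 transcripts higher in F controls at 28 d, 4 were raised and 3 lowered in F at 14 d (2.18% and 37.1% of 919 probe sets), with a median of 0.06. In M, 9 were raised and 0 lowered (21.4% and 5.33%), with a median of 0.92. Of the 9 lower in F controls at 28 d, 7 were raised in F and 4 in M at 14 d (39.4% and 7.43% of 808 probe sets), and 0 were lowered in either (5.07% and 22.6%). Their medians were 0.71 in F and 0.13 in M.

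**Figure D5:**
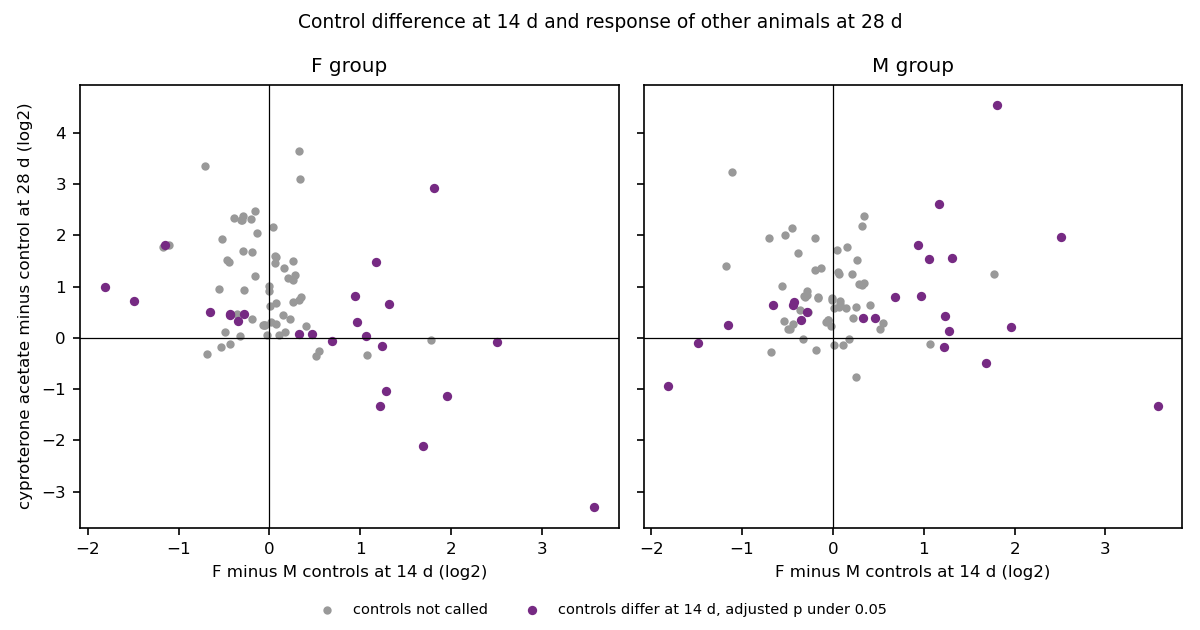
Each of the 82 transcripts by its F minus M control difference at 14 d (x axis, log2) and its change with cyproterone acetate at 28 d (y axis, log2), in the F group on the left and the M group on the right. Purple points are the 24 transcripts whose controls differed at 14 d. The 16 purple points right of 0 have a median change of -0.01 in the F panel, where 3 were called raised and 5 lowered, and of 0.62 in the M panel.

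Among themselves the transcripts varied largely on their own once group means were taken off. Over 87 arrays outside the phenobarbital set, the median correlation of 3321 pairs of residuals was 0.05, and 27 pairs (0.813%) exceeded 0.5. Above 0.9 were 10 pairs, which tie 14 transcripts into 6 groups: 10 with 13, 17 with 18 and 19, 31 with 36, 33 with 34 and 37, 71 with 78, and 72 with 76. Counting each group once leaves 74. These arrays share their normalisation, and the correlations are a description. The transcripts also varied more between arrays of a group than most, with a median residual SD of 0.298 against 0.202 over all probe sets. Their mean control levels spanned a median of 0.66 over 7 control groups, against 0.36 for all, and a span of 1 or more was seen in 19 (23.2% against 2.87%).

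The median change of the 82 over the 14 comparisons was compared with the pattern of every other probe set. The 3 most similar outside the set had Pearson correlations of 0.951, 0.912 and 0.905 over those 14 comparisons, some of which share controls. Their own rises with phenobarbital were between 0.07 and 0.33, short of the rule. Within the set the median correlation with that pattern was 0.568, with 49 transcripts above 0.5 and 7 below 0. The pattern is the median of these same transcripts, so part of that agreement is built in. These counts were not made over all probe sets, so they are not shown to be particular to the 82.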

How the data were processed

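Values are log2 expression levels deposited by the authors in 1 table of 23110 transcript probe sets. Per the submitters' processing notes they used RMA (background correction, quantile normalisation and probe summary) and affy. Versions and annotation are not given in the sources used here. Of the probe sets, 640 repeated an earlier one and were kept once. Groups come from the labels. Arrays marked as not of good quality (11) were left out. The 82 transcripts, like the lists and tests, were chosen with earlier results of these data known.

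All 29 groups were fitted together with limma 3.58.1 in R 4.3.3 (83 residual degrees of freedom), with Benjamini-Hochberg adjustment over all 22470 probe sets and calls at 0.05. The fit was also run on simulated data with independent normal noise at the spread the fit itself estimated. That run held no study sets and no unequal spread between groups, so it does not bear on either. Transcripts printed by identifier are the 2 with the largest lowest rise with phenobarbital and the 2 with the largest falls (called, groups not overlapping). The number of arrays limits the precision, and arrays give no read depth. Labels do not say that each array is a separate rat, so p-values measure the spread between arrays. Same-numbered arrays did not deviate together (correlations of single pairs from -0.10 to 0.08), so numbers were not used as pairs. Alternatives were all arrays, centring, quantile normalisation, a filter on dim probe sets, trend and robust variances, a replicate block, single control sets, other rule thresholds and leaving out each array. Gene lists and cell type markers were not run because no identifier was paired with a gene.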

Additional observations from a re-analysis of the deposited data

Results flagged for a closer look

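Single arrays stood apart in 17 of 252 checks of 1 group each, where chance gives about 1 in 20. Transcript 4 was at 10.56 on phenobarbital control replicate 5 of 28 d, at 7.35 on Wy-14643 control replicate 2 and at 9.30 on dichlorobenzene control replicate 5, and transcript 2 at 5.75 on phenobarbital control replicate 4 of 90 d. Transcript 2 was also at 9.89 on cyproterone acetate F replicate 3 of 28 d. Transcript 33 was at 9.50 on Wy-14643 control replicate 1 and at 8.78 on dichlorobenzene control replicate 1, the array where transcript 30 was at 7.58. Transcript 30 was at 8.68 on cyproterone acetate F replicate 1 of 14 d. Transcript 64 was at 8.78 on control replicate 3 of cyproterone acetate M at 28 d, at 7.25 on cyproterone acetate M replicate 2 of 14 d and at 5.83 on water control replicate 3. Transcript 45 was at 5.71 on F control replicate 4 of 28 d, transcript 5 at 11.56 on dichlorobenzene replicate 2, and transcript 3 at 5.68 on water control replicate 2 and at 7.95 on Wy-14643 replicate 1. The median difference of the 82 transcripts was -0.0604 on Wy-14643 control replicate 1.

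Responses differed between groups in limma. Cyproterone acetate changes differed between F and M in 15 transcripts at 14 d and 17 at 28 d. F minus M was -1.32 for transcript 1, -3.14 for transcript 30, -1.96 for transcript 26 and 1.70 for transcript 45 at 14 d. At 28 d it was -1.63 for transcript 1, -1.99 for transcript 30, -2.05 for transcript 26 and 1.93 for transcript 45. Methapyrilene doses differed in 49 transcripts at 14 d. The 100 minus 30 mg/kg difference was 1.66 for transcript 1, -3.14 for transcript 64, 0.90 for transcript 5, 1.06 for transcript 6, -1.76 for transcript 7, -2.15 for transcript 33 and 1.78 for transcript 45. The calls of transcripts 5 and 7 were lost without 30 mg/kg replicate 2 (adjusted p = 0.0591 and 0.0557), and that of transcript 6 without any 1 of the 6 treated arrays.

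Arrays left out of the comparisons also carried the signal: the 2 left-out phenobarbital arrays of 90 d exceeded the left-out control array by a median of 1.24 over the 82 transcripts.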

How the results depend on the processing

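Of 687 values recomputed under alternatives, 642 stayed within set limits, 39 moved beyond them and 6 turned direction. For a median change the limit was the SD between the treated arrays, and medians smaller than that SD were not counted as turned. The pioglitazone 63 mg/kg median thus went from -0.012 to 0.0087 without its replicate 1 and stayed within the limit. For percent called and the number of transcripts the limit was a set ratio to the main value. With the replicate block all 41 values stayed within these limits (a median change of 0.70 for cyproterone acetate F at 14 d, for example), and same-numbered arrays did not pair. Rule thresholds of 1 and 0.4 gave 20 and 128 transcripts, and leaving out single arrays 76 to 91. Centring arrays gave medians of 0.62 for cyproterone acetate M at 14 d and 0.59 for methapyrilene 100 mg/kg, which was 0.58 without dim probe sets.

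As percent of transcripts called, methapyrilene 30 mg/kg at 14 d fell from 18.3 to 8.54 with its own control set alone and was 35 over the 20 transcripts of threshold 1. Pioglitazone 63 mg/kg went from 4.88 to 0 and 10 under these settings, and rosiglitazone from 2.44 to 0 and 0, or 7.46 without dim probe sets. Dichlorobenzene minus piperonyl butoxide went from 4.88 to 8.96 without dim probe sets.

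Leaving out single arrays gave medians from 0.89 to 1.04 for dichlorobenzene, 0.54 to 0.75 for methapyrilene 100 mg/kg, 0.20 to 0.32 and 0.15 to 0.23 for 30 mg/kg at 14 and 28 d, and 0.55 to 0.68 for piperonyl butoxide at 14 d. Percent called ranged from 13.4 to 22 for cyproterone acetate F minus M at 28 d, where the majority turned to higher in F at 18.3 (without M control replicate 4, F control replicate 4 or F treated replicate 3) and 17.1 (without M treated replicate 1). It ranged from 1.22 to 9.76 for dichlorobenzene minus piperonyl butoxide, 0 to 3.66 for methapyrilene 30 mg/kg between times (3.66 without replicate 1 of 28 d), and 0 to 2.44 for piperonyl butoxide between times (2.44 without replicate 2 of 28 d) and for pioglitazone 63 mg/kg minus rosiglitazone (2.44 without rosiglitazone replicate 1). Ranges were 0 to 4.88 for pioglitazone 63 mg/kg (1.22, a majority lowered, without water control replicate 4) and 0 to 3.66 for rosiglitazone (1.22, a majority raised, without water control replicate 1). The causes were not tested. With 3 to 5 arrays a group and 15 of the 82 transcripts among the dimmest 40% of probe sets, small changes could not be detected.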
